A study of Mus musculus with 2 samples.

Results

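Oxidative phosphorylation genes were examined in myeloid cells sorted from colorectal polyps of WT and Clec7a-/- mice. Members were all genes whose symbol begins with Nduf, Uqcr, Atp5, Sdh, Cox4, Cox5, Cox6, Cox7, Cox8, mt-Nd, mt-Co, mt-Cyt or mt-Atp, leaving out symbols that hold -ps. This rule took 110 of the 32285 genes in the count matrices, 97 encoded in the nucleus and 13 in mitochondrial DNA (mtDNA). It read no expression value. Of the nuclear-encoded members, 44 belonged to complex I, 8 to complex II, 8 to complex III, 20 to complex IV and 17 to complex V, counting 12 assembly factors, which help to build a complex without being part of it.

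The study set tumor myeloid cells of WT mice beside those of mice without Dectin-1, the beta-glucan receptor encoded by Clec7a, and here that comparison is made for these transcripts, class by class. Counts of Clec7a were not analysed here, so that the genotype labels were not checked against it. C57BL6/J mice, 26 weeks old, had received azoxymethane (AOM), a colon carcinogen, and 3 cycles of 1% dextran sulfate sodium (DSS), which injures the colon epithelium, and were killed 16 weeks after AOM. Each genotype gave 1 library of CD11b+ and CD11c+ cells from polyps, pooled over 5 mice for WT and 4 for Clec7a-/-. Both genotypes had tumors and the same treatment, and no untreated mice entered. With 1 library per genotype and no mouse of origin for a cell, no difference between genotypes could be tested, and mice, library and genotype cannot be told apart.

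The respiratory chain passes electrons from NADH at complex I and from succinate at complex II through complexes III and IV to oxygen, and complex V, ATP synthase, makes ATP from the proton gradient that builds up. All complexes but the second, succinate dehydrogenase, are assembled from subunits of both genomes, so that nuclear and mitochondrial transcription both feed them. Macrophages and dendritic cells respire through many mitochondria, whereas mature neutrophils hold few and are known for living mainly on glycolysis.

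After keeping barcodes with 200 to 4000 detected genes, 3360 WT and 2983 Clec7a-/- barcodes remained, with 14592290 and 11109702 unique molecular identifiers (UMIs, each a counted RNA molecule) and medians of 3244 and 2731 UMIs. No limit was set on the mitochondrial share. The libraries shared 17 barcode sequences. Clusters were named from marker genes and are called "-like": 565 WT and 372 Clec7a-/- barcodes were neutrophil-like, 458 and 304 monocyte-like, 305 and 210 transitional-like (between monocyte and macrophage), 537 and 383 macrophage-like and 552 and 1017 dendritic cell-like (DC-like). The sort also held 86 and 182 T-cell-like and 166 and 98 epithelial-like barcodes, and 468 and 194 barcodes in a cluster that carried neutrophil and monocyte markers together and was left unnamed. Doublets were not removed. Neutrophil-like barcodes fell in 2 clusters that the libraries filled differently: 510 WT and 87 Clec7a-/- barcodes in the cluster high in granule transcripts, and 55 and 285 in the cluster low in them. Median depth in the class was 2765 UMIs in WT and 1125 in Clec7a-/-.

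Levels are UMIs summed over the barcodes of a class, per 1000000 UMIs outside the 13 mtDNA genes (CPM). Ratios are on the log2 scale with 0.5 UMI added, with 95% exact intervals that cover counting error only. Genes were compared between classes or libraries, and not with each other by level, because 3′ counts carry no length correction. Where paralogs are set side by side, their UMI counts say only how often each was detected.

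Most members were detected, and the silent ones were mostly tissue-restricted isoforms. Over both libraries 86 nuclear-encoded members and all 13 mtDNA-encoded genes had at least 100 UMIs. Cox7b2, Cox8b, Cox8c and Ndufa4l2 had 0 UMIs in both libraries, which allows at most 0.214 CPM in WT and 0.285 in Clec7a-/- by counting error alone. Another 7 members had fewer than 100 UMIs: Cox4i2, Cox6a2, Cox6b2, Cox7a1, Ndufaf1, Ndufaf6 and Sdhaf3.

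The complex IV isoforms detected most often were those that most tissues use. Cox4i1 had 6613 WT and 5258 Clec7a-/- UMIs, against 6 and 7 for its partner Cox4i2, an isoform known from lung. Cox6a1 had 4054 and 4320 UMIs, against 12 and 6 for Cox6a2 of heart and skeletal muscle. Cox6b1 had 6134 and 5277, against 54 and 29 for the testis isoform Cox6b2. Cox7a2 had 3037 and 2461, against 35 and 44 for the heart and muscle isoform Cox7a1. Each of these pairs was split the same way in both libraries. Cox8a (7008 and 6163 UMIs), Cox7b (3521 and 3165) and Ndufa4 (1679 and 1979) likewise stood alone among their paralogs, while Cox5a (5857 and 5356) and Cox5b (2818 and 2476) are different subunits and were both present.

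ATP synthase subunit c, whose ring turns with the proton flow, is made from 3 genes that encode the same mature protein, and all 3 were used: Atp5g1 with 3062 WT and 2917 Clec7a-/- UMIs, Atp5g2 with 4818 and 4351 and Atp5g3 with 8633 and 8335. How reads shared between near-identical copies were counted is not known here. Cox7a2l, a factor that joins complexes III and IV into supercomplexes, had 2703 and 2502 UMIs, and its level was 333 WT and 296 Clec7a-/- in DC-like against 221 and 233 in macrophage-like barcodes.

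Across the myeloid classes the nuclear-encoded members were lowest in neutrophil-like, intermediate in monocyte-like and highest in macrophage-like barcodes. Their summed level was 3417 CPM in WT and 3468 in Clec7a-/- neutrophil-like barcodes, 10352 and 11063 in monocyte-like, 15410 and 16536 in transitional-like and 17300 and 17521 in macrophage-like. DC-like barcodes had 14677 and 15840, T-cell-like 15720 and 16769, and epithelial-like barcodes the most, 25363 and 33536. The order of the myeloid classes was the same in both libraries.

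The 13 mtDNA-encoded genes followed another order. They summed to 14789 CPM in WT and 21789 in Clec7a-/- neutrophil-like barcodes, 27966 and 31272 in monocyte-like, 37625 and 42180 in transitional-like, 44980 and 50963 in macrophage-like and 52663 and 60336 in DC-like barcodes. DC-like barcodes thus stood above macrophage-like for the mitochondrial genes and below them for the nuclear-encoded ones. That mitochondrial order turned around when barcodes over 5% mitochondrial UMIs were left out. The DC-like over macrophage-like ratio was then -0.12 in WT and -0.02 in Clec7a-/- in place of 0.23 and 0.24. This limit cuts on the quantity compared. It took out 38.6% WT and 49.2% Clec7a-/- of DC-like barcodes, against 27.7% and 36.3% of macrophage-like ones. The number of mtDNA-encoded UMIs for each nuclear-encoded UMI was 4.33 WT and 6.28 Clec7a-/- in neutrophil-like, 2.70 and 2.83 in monocyte-like, 2.60 and 2.91 in macrophage-like and 3.59 and 3.81 in DC-like barcodes. Among the named classes it was highest in epithelial-like barcodes, 8.90 and 6.94, in which 64.5% and 64.3% of barcodes were over 10% mitochondrial UMIs.

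**Figure D1:**
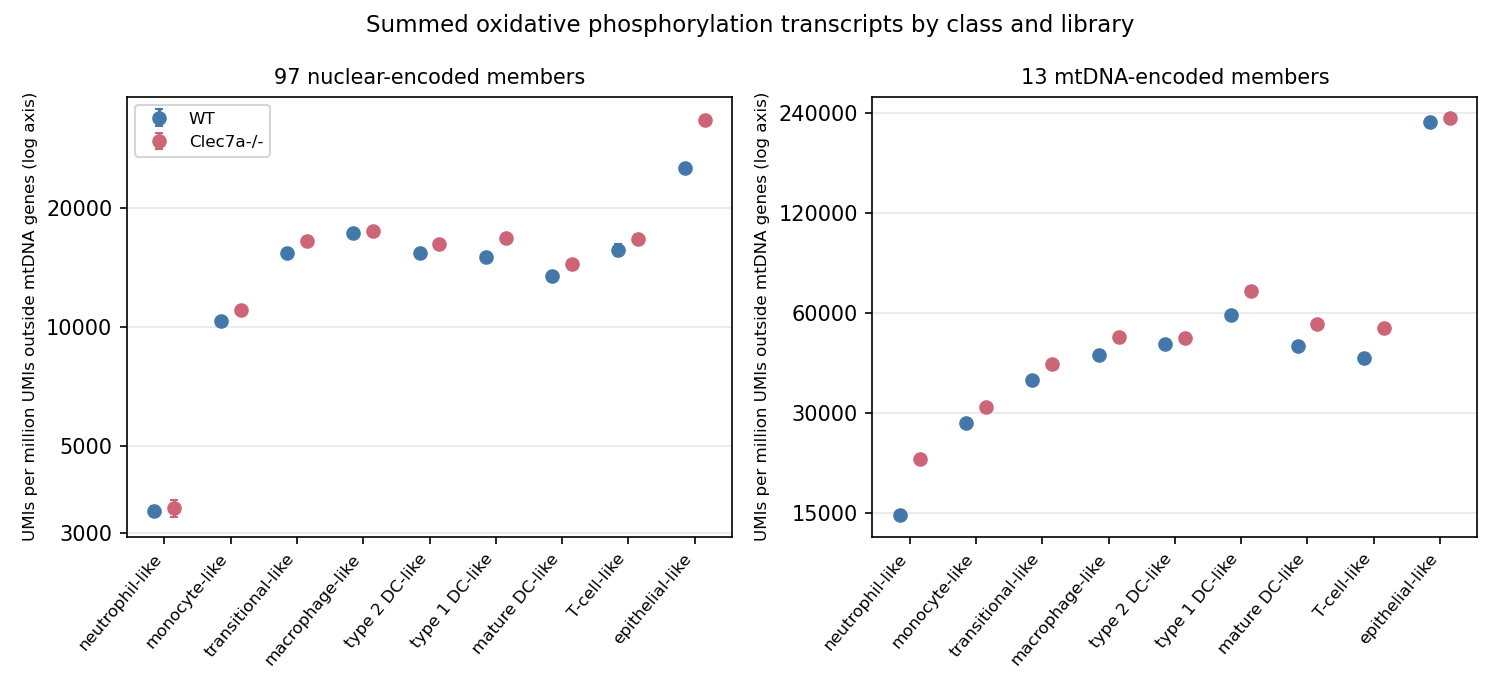
Summed level of the 97 nuclear-encoded (left) and 13 mtDNA-encoded members (right) in each marker-defined class, in CPM (UMIs per 1000000 UMIs outside the mtDNA genes) on a log axis. Points are the WT and Clec7a-/- libraries and bars 95% exact Poisson intervals, mostly hidden by the points; neutrophil-like barcodes had the lowest level on both sides (3417 and 3468 nuclear, 14789 and 21789 mtDNA).

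The low level of neutrophil-like barcodes ran through all complexes. Complex I nuclear subunits summed to 651 CPM in WT and 690 in Clec7a-/- neutrophil-like barcodes against 3583 and 3589 in macrophage-like. Complex IV stood at 1178 and 1151 against 5154 and 5238, and complex V at 1122 and 1187 against 6455 and 6576. Complex III (263 and 288 against 1418 and 1460) and complex II (147 and 105 against 560 and 525) showed the same gap. Summed over the nuclear-encoded members the macrophage-like over neutrophil-like ratio was 2.34 (2.30 to 2.38) in WT and 2.34 (2.27 to 2.41) in Clec7a-/-, about 5.06-fold and 5.05-fold. With TMM factors, which center the bulk of genes, it was 1.23 and 1.54, and the mtDNA-encoded ratio went from 1.60 and 1.23 to 0.49 and 0.43.

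Since levels are relative to the UMIs of each class, these ratios were read against all genes. The median gene with at least 100 UMIs was itself higher in macrophage-like barcodes, by 1.40 in WT and 1.28 in Clec7a-/-, and 57.3% and 56.3% of genes were past a log2 ratio of 1. Of the nuclear-encoded members with that many UMIs, 69 of 73 in WT and 63 of 68 in Clec7a-/- were past 1, with a median of 2.74 in both libraries. None was past -1, against 15% and 16.5% of all genes. Relative to the median gene the nuclear-encoded sum was higher by 0.94 and 1.06, whereas the mtDNA-encoded sum was higher by 0.21 in WT and lower in Clec7a-/- (-0.06). Since a member that is low in neutrophil-like barcodes passes the count minimum only through macrophage-like ones, the 18 members with at least 100 WT UMIs in neutrophil-like barcodes were looked at alone. Their ratios ran from 0.79 to 3.59 with a median of 1.94, and 15 of 18 were past 1, against 19.0% of the 1799 genes chosen the same way. In Clec7a-/- only 2 members had that many UMIs. The 10 most abundant genes took 18.8% of UMIs in WT neutrophil-like and 11.1% in WT macrophage-like barcodes.

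Among single members, Ndufb8, an accessory subunit of complex I (chr19:44548572-44555440, minus strand, GRCm38), stood at 304 CPM in WT and 313 in Clec7a-/- macrophage-like barcodes and at 17.7 and 12.8 in neutrophil-like. The ratio was 4.08 (3.58 to 4.68) in WT and 4.50 (3.48 to 6.06) in Clec7a-/-. Ranked by the smaller of the 2 libraries' ratios, the next were Ndufa12 (4.27 and 3.99), Ndufa9 (5.16 and 3.90), the ATP synthase stalk subunit Atp5o (4.08 and 3.83) and Ndufc2 (3.90 and 3.73). Of these 5 members, 4 belong to complex I. Its subunits were 32 of the 73 nuclear-encoded members tested in WT and 29 of 68 in Clec7a-/-. In WT neutrophil-like barcodes Ndufa12 and Ndufa9 stood at only 5.90 and 2.95 CPM. In Clec7a-/- ones both were at 6.41, which is 3 UMIs. Atp5o and Ndufc2 stood at 16.5 and 11.8 CPM in WT and at 19.2 and 12.8 in Clec7a-/- neutrophil-like barcodes. All 5 members thus passed the count minimum only through macrophage-like barcodes. None was among the members chosen above by their UMIs in neutrophil-like barcodes alone. Whether complex I also leads among members chosen that way was not tested.

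The smallest ratios were not confined to a complex. Ndufa2 had 0.92 in WT and 0.72 in Clec7a-/-, Ndufa7 0.84 and 0.76, and the ATP synthase subunit Atp5l 0.79 and 0.80, with 329 and 348 CPM in neutrophil-like barcodes against 570 and 607 in macrophage-like. Cox8a had 0.94 in WT. These 4 are named after their values were seen, as is Ndufaf7, a methyltransferase needed for complex I assembly. It was higher in neutrophil-like barcodes, with 48 UMIs (28.3 CPM) in WT and 11 UMIs (23.5) in Clec7a-/- against 21 (5.63) and 12 (5.42) in macrophage-like, a ratio of -2.31 (-3.15 to -1.57) and -2.12 (-3.42 to -0.79).

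**Figure D2:**
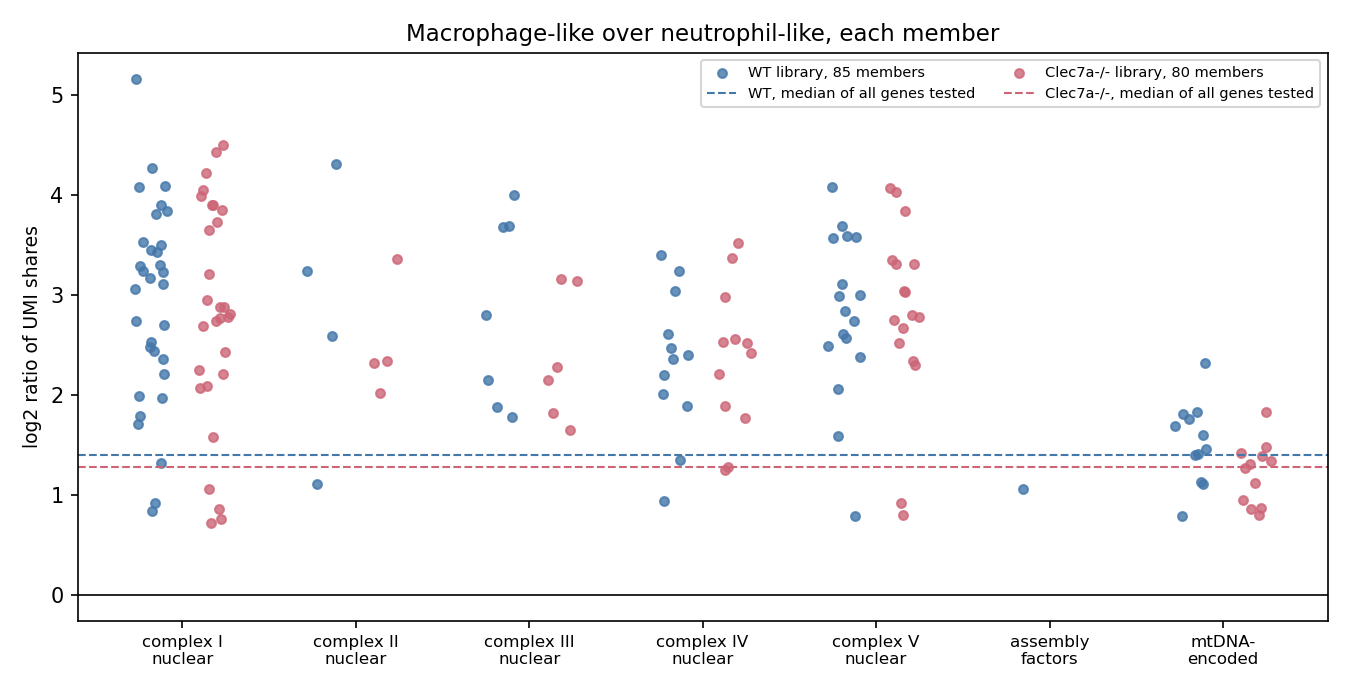
Log2 ratio, macrophage-like over neutrophil-like barcodes, of each member with at least 100 UMIs over the 2 classes, by complex and library. Dashed lines are the medians of all genes tested (1.40 WT, 1.28 Clec7a-/-); most nuclear-encoded members lie above them, and the mtDNA-encoded genes lie around them.

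Complex II, the only complex without an mtDNA-encoded subunit and also an enzyme of the citric acid cycle, was uneven. Sdha, which carries the flavin and the active site, had 148 CPM in WT and 133 in Clec7a-/- macrophage-like barcodes and 15.4 and 25.6 in neutrophil-like. Sdhb, the iron-sulfur subunit, had 76.3 and 70.0 against 12.4 and 12.8. Sdhc, a membrane anchor, had 87.9 and 76.4 against 4.13 and 6.41, the latter from 7 and 3 UMIs. The other anchor, Sdhd, kept a higher level in WT neutrophil-like barcodes, 115 CPM, with a macrophage-like over neutrophil-like ratio of 1.10 (0.88 to 1.34), below that of the other subunits (2.59 to 4.31). In the Clec7a-/- library Sdhd was at 59.8 and its ratio at 2.01 (1.49 to 2.64).

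Other mitochondrial gene lists stood in the same order, and their counts are to be read against 57.3% of all genes past 1 in WT and 56.3% in Clec7a-/-. A listed gene that is low in neutrophil-like barcodes also passes the count minimum only through macrophage-like ones. The lists were not read on genes chosen by their UMIs in neutrophil-like barcodes alone. Mitochondrial ribosomal protein genes summed to 739 CPM in WT and 927 in Clec7a-/- neutrophil-like barcodes against 2464 and 2491 in macrophage-like, with 35 of the 40 tested of 78 past 1 in WT and 15 of 20 in Clec7a-/-, while Mrps15 was past -1 in both. Citric acid cycle genes (235 and 254 against 1261 and 1169) had 14 of 14 and 11 of 11 past 1, among them Cs, citrate synthase. Import and carrier genes (819 and 692 against 4359 and 4044) had 14 of 14 and 13 of 13, among them the ATP/ADP carrier Slc25a5. Cytosolic ribosomal proteins, which are not mitochondrial, showed a gap of like size, 16763 and 18913 against 82228 and 86974. Assembly factors outside the symbol rule did not (582 and 799 against 829 and 836), with Cox17, the copper carrier to complex IV, past -1 in both libraries. Electron carriers and subunits outside the rule, among them cytochrome c1 (Cyc1), had 6 of 8 tested past 1 in WT and 5 of 7 in Clec7a-/-. Genes of mtDNA upkeep had 4 of 4 and 1 of 1, of 19 listed, and uncoupling and HIF-linked genes 2 of 4 and 2 of 3, with Ucp2 in both.

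Monocyte-like and DC-like barcodes also exceeded neutrophil-like ones. For monocyte-like barcodes 39 of 47 tested nuclear-encoded members in WT and 29 of 34 in Clec7a-/- were past 1, against 45.7% and 43.2% of all genes, with a median of 1.96 in both. Ndufa4, counted with complex IV in recent structures, led with 116 WT and 160 Clec7a-/- CPM against 14.2 and 12.8, followed by the Rieske protein Uqcrfs1, Atp5g3, Atp5o and Cox7b. For DC-like barcodes 61 of 66 and 66 of 72 were past 1, against 54.2% and 62% of all genes, with medians of 2.5 and 2.49, led by Ndufa4, Ndufab1, Ndufa12, Atp5g3 and Ndufb8. T-cell-like barcodes had 24 of 29 and 26 of 30 past 1, against 29.1% and 38%, led by Atp5g3, Cox5a, Atp5a1, Atp5f1 and Atp5b. Among the 18 members with at least 100 WT UMIs in neutrophil-like barcodes alone, 12 were past 1 in monocyte-like, 14 in DC-like and 14 in T-cell-like barcodes, against 20.4%, 19.6% and 20.3% of the genes chosen the same way. Of the 2 such members in Clec7a-/-, 0, 1 and 0 were past 1. Scaled with TMM factors, the mtDNA-encoded sum of monocyte-like over neutrophil-like barcodes changed sign, from 0.92 to -0.13 in WT and from 0.52 to -0.23 in Clec7a-/-, while the nuclear-encoded sum stayed above 0 (0.55 and 0.92).

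Fewer members than in the comparisons with neutrophil-like barcodes parted DC-like from macrophage-like ones. The median over the tested nuclear-encoded members was -0.35 in WT and -0.20 in Clec7a-/-, and 6 of 76 and 3 of 75 were past -1, against 19.5% and 16.2% of all genes. Lower in DC-like barcodes were the complex I subunits Ndufs3 (14.4 and 16.1 CPM against 37.2 and 33.0), Ndufv3, Ndufc2 and Ndufa5, and Sdhc (37.0 and 41.1 against 87.9 and 76.4). Past 1 in the other direction, against 13.1% and 16.4% of all genes, was Sdhaf1, an assembly factor that protects the iron-sulfur subunit of complex II. It had 39.2 WT and 45.1 Clec7a-/- CPM in DC-like against 12.3 and 8.13 in macrophage-like barcodes, a ratio of 1.66 (1.14 to 2.22) and 2.44 (1.77 to 3.26). Sdhaf2, the factor that inserts the flavin into Sdha, was higher by 0.61 and 0.60, Ndufa4 by 0.62 and 0.57, mt-Nd3 by 0.39 and 0.45 and Uqcrfs1 by 0.39 and 0.41. Sdhaf4, a further assembly factor of complex II, had under 100 UMIs over the 2 classes in each library and a ratio of -0.69 (-1.51 to 0.03) and -0.22 (-0.84 to 0.42).

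Within the DC-like class, type 1 DC-like barcodes (Xcr1, Clec9a) had more than mature DC-like ones (Fscn1, Ccl22), 15044 WT and 16843 Clec7a-/- CPM for the nuclear-encoded members against 13481 and 14424, and 59323 and 69745 against 47726 and 55595 for the mtDNA-encoded. Of type 1 DC-like barcodes 19.8% and 19.9% were over 10% mitochondrial UMIs, against 6.75% and 11.1% of mature ones. Without them the mitochondrial share was 4.57% and 5.21% against 4.13% and 4.61%. Ndufb11, an X-linked complex I subunit, was past 1 in both libraries, with 202 and 230 CPM against 84.9 and 96.7, where 7.63% and 8.16% of all genes were past 1. Ndufa9 (0.93 and 0.82), Ndufb6 (0.89 and 0.75), Atp5g1 (0.71 and 0.68) and mt-Nd2 (0.79 and 0.63) followed. Ndufv2, Cox5a, Uqcrh, Cox5b and Sdhd had the lowest ratios, between -0.74 and -0.13.

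Epithelial-like barcodes, a cell type the sort was not aimed at, were the extreme for the mtDNA-encoded genes. All 12 tested mtDNA-encoded genes were past 1 over macrophage-like barcodes in both libraries, led by mt-Atp8 (782 WT and 699 Clec7a-/- CPM against 92.4 and 111), mt-Nd4l (1550 and 1459 against 169 and 267) and mt-Atp6 (38933 and 41119 against 6471 and 7563). Summed, they were higher by 2.33 and 2.19. Barcodes over 10% mitochondrial UMIs were 64.5% and 64.3% of the epithelial-like class and 2.6% and 7.0% of the macrophage-like. Without them the mitochondrial share was 7.11% WT and 6.13% Clec7a-/- in epithelial-like barcodes, against 4.19% and 4.38% in macrophage-like. That limit cuts on the quantity compared, and the ratios of single genes were not recomputed under it. The nuclear-encoded sum was higher by 0.55 and 0.94, and 10 of 73 and 32 of 69 members were past 1, against 12.6% and 14.8% of all genes. The 5 epithelial markers (Epcam, Krt8, Krt18, Krt19, Cldn7) summed to 9787 and 10662 CPM in these barcodes and none was at 0.

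The promoters of the nuclear-encoded members were read as well. RefSeq windows from 250 bases before to 50 bases after the start (GRCm38.p6) were found for 80 of 97 nuclear-encoded members, 1 of them by a synonym. NRF1 and the ETS factor GABP are textbook activators of respiratory genes. The NRF1 motif of 10 letters, whose sixth may be any base (capitals below), was searched on both strands and was in 21 of the 80 (26.3%), against 7.17% of 17491 protein-coding genes, and the ETS motif CCGGAAG in 22 (27.5%), against 12.9%. Both motifs were in 5 members (6.25%), against 1.56% of protein-coding genes, and neither in 42. Stretches around the NRF1 motif (capitals) are shown 5′ to 3′ along the gene for 4 members whose levels are described here, Sdhd (chr9:50603889-50603958), Cox6a1 (chr5:115349036-115349105), Sdha (chr13:74350299-74350368) and Ndufs6 (chr13:73328483-73328528), all on the minus strand, with the Ndufs6 motif read from the opposite strand.
Sdhd: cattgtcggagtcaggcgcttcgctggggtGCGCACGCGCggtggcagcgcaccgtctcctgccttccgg
Cox6a1: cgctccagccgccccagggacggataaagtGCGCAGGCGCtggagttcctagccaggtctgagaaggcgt
Sdha: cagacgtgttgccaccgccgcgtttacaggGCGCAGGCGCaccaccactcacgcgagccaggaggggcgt
Ndufs6: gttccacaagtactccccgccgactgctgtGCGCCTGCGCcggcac
Sdha held the motif at 3 places in its window. Of the 5 members leading the macrophage-like over neutrophil-like ratios, Ndufb8, Ndufa12, Ndufa9 and Ndufc2 held neither motif and Atp5o held the NRF1 motif. Of members with small ratios, Atp5l and Cox8a held the ETS motif, Ndufa7 held neither and Ndufa2 had no window. A match describes the letters and no binding was measured. A tie between motifs and class levels was not tested.

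Between the libraries, both parts were somewhat higher in Clec7a-/- in most classes. The mtDNA-encoded ratio exceeded the nuclear-encoded one by 0.54 in neutrophil-like, 0.21 in T-cell-like and 0.16 in macrophage-like barcodes. The gap was only 0.09 in DC-like, 0.07 in monocyte-like and 0.06 in transitional-like barcodes. It was below 0 in type 2 DC-like (-0.0036) and epithelial-like barcodes (-0.36). Among unnamed clusters it was below 0 in the one with neutrophil and monocyte markers together (-0.03) and one led by proliferation genes (-0.21). Over all barcodes the nuclear-encoded sum was 13186 CPM in WT and 15791 in Clec7a-/-, a log2 ratio of 0.26 (0.25 to 0.27), and the mtDNA-encoded sum 42197 and 56411, a ratio of 0.42. The median gene differed by 0.13. The make-up of the libraries moved with these values. Weighting the Clec7a-/- clusters by their WT shares, an alternative chosen after seeing the data, gave 0.13 and 0.23. Cytosolic ribosomal proteins, which are not members, were also higher in Clec7a-/-, by 0.33 over all barcodes. Their ratio was 0.17 in neutrophil-like, 0.16 in monocyte-like, 0.09 in transitional-like, 0.08 in macrophage-like and 0.03 in DC-like barcodes. Mitochondrial ribosomal protein genes were 1.23-fold over all barcodes.

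Within the classes the nuclear-encoded ratio was 0.02 (-0.06 to 0.10) in neutrophil-like, 0.10 in monocyte-like, 0.10 in transitional-like, 0.02 in macrophage-like, 0.11 in DC-like and 0.09 in T-cell-like barcodes. The neutrophil-like value became -0.20 with TMM factors. The mtDNA-encoded ratio was 0.56 (0.53 to 0.59) in neutrophil-like, 0.16 in monocyte-like, 0.16 in transitional-like, 0.18 in macrophage-like, 0.20 in DC-like and 0.31 in T-cell-like barcodes. With TMM factors the monocyte-like value was 0.081 and the neutrophil-like 0.34, and with equal weight per barcode the DC-like value was 0.017. Leaving out barcodes over 5% mitochondrial UMIs took the macrophage-like value to -0.02, the DC-like to 0.078, the monocyte-like to 0.092 and the transitional-like to 0.080. At that limit the mtDNA-encoded ratio lay below the nuclear-encoded one in macrophage-like, transitional-like and DC-like barcodes. The limit cuts on mtDNA-encoded UMIs themselves and took out a larger part of Clec7a-/- than of WT barcodes in these classes. Epithelial-like barcodes went the other way, with 0.40 (0.36 to 0.44) for the nuclear-encoded and 0.05 for the mtDNA-encoded members. Macrophage markers summed to 1001 CPM in WT and 246 in Clec7a-/- epithelial-like barcodes, with 0 of 10 and 3 of 10 at 0, against 17738 and 23442 in macrophage-like, and their part in that ratio was not tested. The 10 most abundant genes of epithelial-like barcodes took 10.5% of UMIs outside mtDNA genes in WT, led by Gm26917. In Clec7a-/- they took 6.25%, led by Actg1, and the part of this was not tested either. Over the 15 clusters, the neutrophil ones included, the nuclear-encoded sum was higher in Clec7a-/- in 12 and the mtDNA-encoded sum in 13.

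For nuclear-encoded members the direction in neutrophil-like barcodes depended on the cluster. In the cluster high in granule transcripts the nuclear-encoded members had 3209 CPM in WT and 3691 in Clec7a-/-, and the mtDNA-encoded 14315 and 24940. In the cluster low in them the nuclear-encoded members had 6285 in WT and 3347 in Clec7a-/-, a ratio of -0.91. Median depth in this cluster was 2179 WT and 973 Clec7a-/- UMIs. The nuclear-encoded level was 4919 and 2616 CPM below the median depth of each library and 7057 and 3733 above it. Monocyte markers summed to 696 and 247 CPM and macrophage markers to 357 and 606. The part of depth and of these markers was not tested. The mtDNA-encoded ratio there was -0.09, and this sign rested on 1 of the 55 WT barcodes: without barcodes over 10% mitochondrial UMIs, an alternative chosen after seeing the data, the ratio was 0.44 (0.36 to 0.52) in that cluster and 0.68 (0.63 to 0.73) in the other, while the nuclear-encoded ratio stayed at -0.91 and 0.20. The nuclear-encoded level of the WT class therefore rested on a cluster of 510 barcodes and that of the Clec7a-/- class on a cluster of 285. The 13 neutrophil markers summed to 48567 and 34157 CPM in the class, and none was at 0 in either library.

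**Figure D3:**
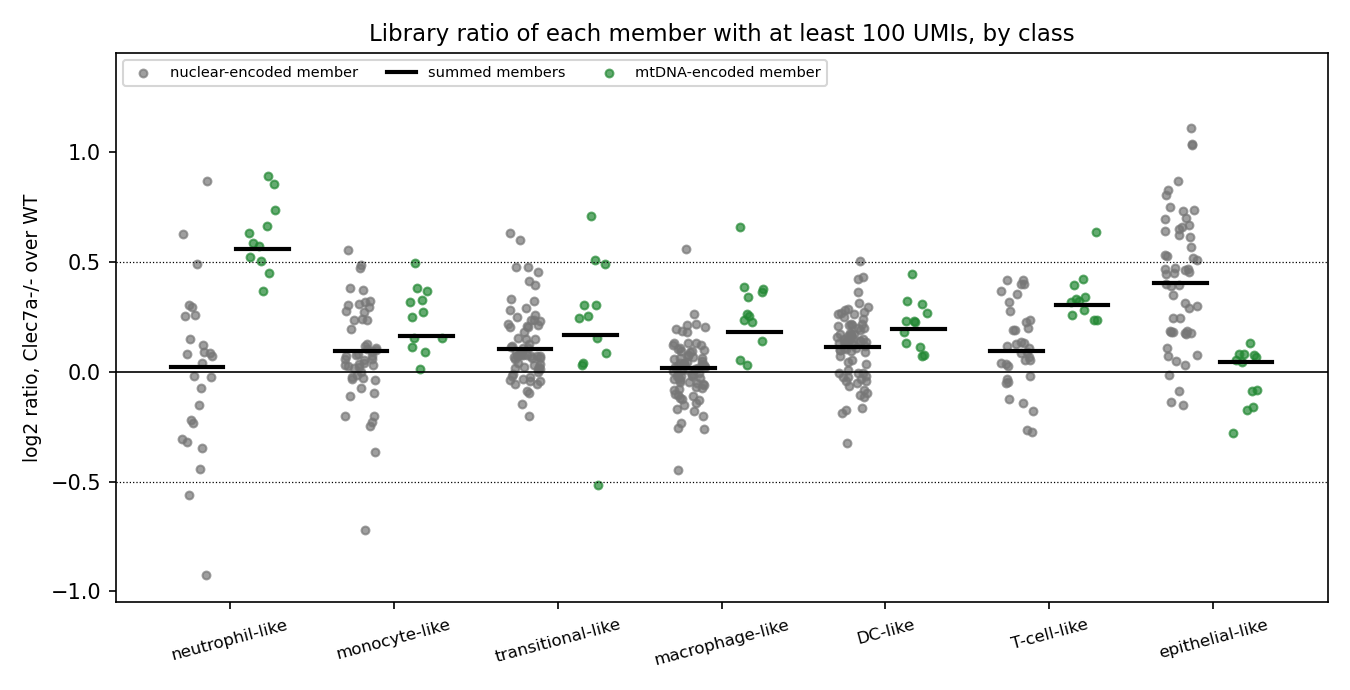
Log2 ratio, Clec7a-/- over WT, of each member with at least 100 UMIs over both libraries, by class. Each point is a nuclear-encoded (grey) or mtDNA-encoded (green) gene, black bars are the ratios of the summed members and dotted lines mark 0.5 and -0.5. The bar of the mtDNA-encoded genes lies above that of the nuclear-encoded members in every class shown but the epithelial-like (0.05 and 0.40). With barcodes up to 5% mitochondrial UMIs alone that order was not kept in macrophage-like (-0.02 and -0.00137), transitional-like or DC-like barcodes.

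Few nuclear-encoded members were past a ratio of 0.5 within a class. In macrophage-like barcodes 1 of 77 tested was past 0.5 and 0 past -0.5, against 3.19% and 4.2% of all genes. In DC-like barcodes the counts were 1 and 0 of 73 (4.78% and 3.57%), in transitional-like 2 and 0 of 66 (4.6% and 5.17%) and in monocyte-like 1 and 1 of 51 (5.02% and 5.39%). Neutrophil-like barcodes had 2 and 2 of 26 (15.6% and 12.2%), a split that became 1 and 6 with TMM factors and 11 and 6 with a minimum of 20 UMIs. T-cell-like barcodes had 0 and 0 of 35 (5.4% and 5.83%). Within the DC-like class the counts were 6 and 0 of 70 in type 1 (7.55% and 3.96%), 1 and 0 of 56 in type 2 (5.58% and 4.77%) and 1 and 1 of 60 in mature DC-like barcodes (4.85% and 5.1%). Over all barcodes 8 of 86 were past 0.5 and 1 past -0.5, against 15.7% and 8.33%. These shares lay near or under those of all genes. Epithelial-like barcodes stood apart with 22 and 0 of 54, against 15% and 10.3%, led by Ndufb5 (273 Clec7a-/- and 126 WT CPM), Uqcrb (726 and 354) and Ndufab1 (388 and 189). Depth differed there, with medians of 1297 WT and 2262 Clec7a-/- UMIs. The nuclear-encoded level was 13446 and 25210 CPM below the class median depth of each library and 27165 and 34589 above it. The part of depth in that count was not tested. The cluster with neutrophil and monocyte markers together had 27 and 0 of 63, against 9.22% and 7.92%, and its neutrophil markers summed to 15010 CPM in WT and 7872 in Clec7a-/-, whose part was not tested.

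Among single members Cox6a1, a complex IV subunit, was past 0.5 in DC-like barcodes, with 723 WT UMIs (315 CPM) and 1800 Clec7a-/- UMIs (446), a ratio of 0.50 (0.38 to 0.63). As it lay at the limit, 0 members were past 0.5 in DC-like barcodes with TMM factors, all UMIs as denominator, no filter on barcodes, a pseudocount of 5 or doublets removed. It was above 0 in the other myeloid classes too, at 0.32 in monocyte-like, 0.33 in transitional-like, 0.18 in macrophage-like, 0.26 (-0.15 to 0.64) in neutrophil-like barcodes, and at 0.24 in epithelial-like ones. Its promoter is shown above. Ndufa4 was likewise higher in monocyte-like (116 WT and 160 Clec7a-/- CPM), transitional-like (93.2 and 144), macrophage-like (119 and 143) and DC-like barcodes (183 and 212), with ratios of 0.47, 0.63, 0.26 and 0.21 and intervals above 0. In neutrophil-like barcodes its ratio was -0.06 (-1.73 to 1.18).

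Sdhd had the lowest ratio in neutrophil-like barcodes, -0.92 (-1.57 to -0.37), from 195 WT UMIs (115 CPM) and 28 Clec7a-/- UMIs (59.8). Its ratio was -1.24 (-2.29 to -0.17) in the neutrophil cluster low in granule transcripts, from 16 WT and 18 Clec7a-/- UMIs, and -0.83 (-1.98 to 0.01) in the cluster high in them. In the other myeloid classes the Sdhd ratio was -0.01 in macrophage-like, -0.01 in DC-like, 0.07 in transitional-like and 0.23 (-0.09 to 0.55) in monocyte-like barcodes, with intervals that included 0, and in epithelial-like barcodes it was higher, 0.83 (0.46 to 1.20). Atp5a1, the ATP synthase alpha subunit, was at -0.56 (-1.14 to -0.05) in neutrophil-like barcodes and the ATP synthase subunit Atp5e at 0.87 (0.48 to 1.23). Atp5g3, Cox6b1 and Ndufa1 were the next lowest, and their intervals included 0.

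In the other classes the extremes were single subunits of several complexes. Ndufa6 was at -0.72 (-1.37 to -0.14) and Atp5j2 at 0.56 (0.12 to 0.98) in monocyte-like barcodes. Ndufs6, whose promoter is also shown, was at 0.60 (0.24 to 0.95) in transitional-like barcodes. In macrophage-like barcodes Uqcrc1, a core protein of complex III, was at -0.45 (-0.94 to 0.01) and Ndufv1, the NADH-binding subunit of complex I, at 0.56 (0.00 to 1.11). Over all barcodes the 3 highest were assembly factors: Ndufaf3 (46 WT and 79 Clec7a-/- UMIs, 1.19), Sdhaf1 (212 and 273, 0.78) and Ndufaf5 (59 and 73, 0.72). Ndufb7 was the lowest at -0.52 (-0.96 to -0.10). Of the 97 nuclear-encoded members 12 were assembly factors, and their sum was 1.33-fold in Clec7a-/- over all barcodes. Within classes that sum was 0.85-fold in neutrophil-like, 0.91 in monocyte-like, 0.97 in T-cell-like and 1.03 in macrophage-like barcodes. It was 1.14 in transitional-like and 1.17 in DC-like barcodes. Sdhaf1 was at 0.20 (-0.17 to 0.58) within DC-like barcodes, the myeloid class where it was highest and of which the Clec7a-/- library held more.

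Among the mtDNA-encoded genes, those of complex I had higher Clec7a-/- over WT ratios than those of complex IV in the monocyte-like, transitional-like and macrophage-like classes. In macrophage-like barcodes the 6 tested mt-Nd genes had ratios of 0.24 to 0.66 and the 3 mt-Co genes 0.03 to 0.14. The ranges were 0.27 to 0.50 and 0.01 to 0.15 in monocyte-like and 0.24 to 0.71 and 0.03 to 0.08 in transitional-like barcodes, so that the groups of genes did not overlap in these classes. They overlapped in DC-like (0.07 to 0.44 and 0.08 to 0.18), T-cell-like (0.23 to 0.64 and 0.26 to 0.34) and neutrophil-like barcodes (0.37 to 0.89 and 0.45 to 0.63). In epithelial-like barcodes the order was partly turned, with -0.28 to 0.13 for mt-Nd and 0.07 to 0.08 for mt-Co. How often 6 and 3 genes taken from all genes part in this way was not counted. mt-Cytb, mt-Atp6 and mt-Atp8 were in neither group. In macrophage-like barcodes mt-Atp6 was higher in Clec7a-/- too, at 6471 WT and 7563 Clec7a-/- CPM, and mt-Atp8, at 92.4 and 111. In transitional-like barcodes mt-Atp8 was lower (-0.52). The ranges of the mt-Nd and mt-Co genes were not recomputed under a limit on the mitochondrial share. Of macrophage-like barcodes, 2.6% in WT and 7.0% in Clec7a-/- were over 10% mitochondrial UMIs.

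mt-Nd3, a membrane subunit of complex I, was higher in Clec7a-/- in each of the 7 classes shown for the mtDNA-encoded genes. It stood at 341 WT and 615 Clec7a-/- CPM in neutrophil-like, 584 and 752 in monocyte-like, 1056 and 1480 in transitional-like, 1194 and 1561 in macrophage-like and 1570 and 2134 in DC-like barcodes. Within the neutrophil-like class it parted by cluster, with 305 and 833 in the cluster high and 836 and 497 in the cluster low in granule transcripts (588 and 497 without barcodes over 10% mitochondrial UMIs). mt-Nd4l, which shares a transcript with mt-Nd4, had the highest ratio in transitional-like (0.71) and macrophage-like barcodes (0.66) but 0.07 in DC-like. By contrast mt-Co3 stood at 3901 and 3980 in macrophage-like and 2360 and 2376 in monocyte-like barcodes. mt-Atp8, which overlaps mt-Atp6, was the only mtDNA-encoded gene with at least 100 UMIs to be lower in a myeloid class as a whole, at -0.52 (-1.0 to -0.06) from 136 WT and 56 Clec7a-/- UMIs in transitional-like barcodes. mt-Nd6, the only member on the light strand, had 66 WT and 67 Clec7a-/- UMIs in all and passed the minimum of 100 only over all barcodes.

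As a share of mtDNA-encoded UMIs, complex I took 21.7% in WT and 23.9% in Clec7a-/- macrophage-like barcodes, 21.1% and 23.5% in monocyte-like, 23.9% and 27.1% in transitional-like, 23.2% and 24.8% in DC-like and 20.9% and 23.1% in neutrophil-like. In the neutrophil cluster high in granule transcripts it was 20.3% and 22.7%, and in the cluster low in them it went the other way, 26.4% and 23.5%, as it did without barcodes over 10% mitochondrial UMIs (26.4% and 23.5%). The epithelial-like share was 24.1% and 22.7%. The complex IV share was lower in Clec7a-/-, 54.0% WT and 50.8% Clec7a-/- in macrophage-like, 54.7% and 52.7% in monocyte-like and 51.8% and 48.1% in transitional-like barcodes. In DC-like barcodes it was 53.2% and 51.1%, and in neutrophil-like 56.2% and 54.3%. The complex IV share was higher in epithelial-like barcodes (47.8% and 48.8%) and in the neutrophil cluster low in granule transcripts (49.5% and 53.9%). The complex I share was higher in Clec7a-/- in 11 of 15 clusters, and it depends on no scaling by nuclear transcripts. Outside the neutrophil clusters it was not recomputed under a limit on mitochondrial UMIs.

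**Figure D4:**
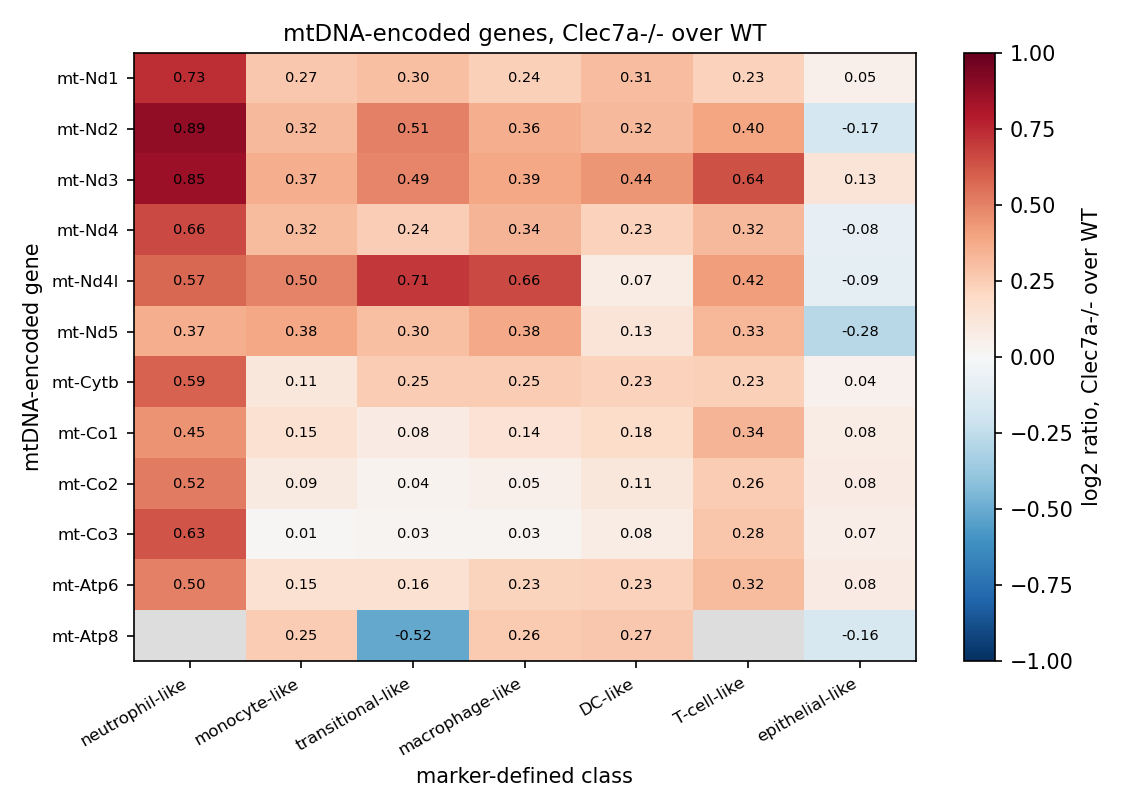
Log2 ratio, Clec7a-/- over WT, of 12 mtDNA-encoded genes (rows) in 7 classes (columns), colored from blue (lower) to red (higher); grey cells had under 100 UMIs. In the monocyte-like, transitional-like and macrophage-like columns the mt-Nd rows (0.24 to 0.71) lie above the mt-Co rows (0.01 to 0.15).

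Mitochondrial UMIs took 4.05% of all UMIs in WT and 5.34% in Clec7a-/-, and 664 (19.8%) and 984 barcodes (33.0%) were over 5%, a limit that the study's methods set. By class the share ran from 1.46% and 2.13% in neutrophil-like through 2.72% and 3.03% in monocyte-like, 4.30% and 4.85% in macrophage-like and 5.00% and 5.69% in DC-like to 18.4% and 18.9% in epithelial-like barcodes. Type 1 DC-like barcodes had 5.60% and 6.52%. A limit of 5% thus fell near the average of the macrophage-like and DC-like classes and far above that of neutrophil-like barcodes. The shallower barcodes of macrophage-like and DC-like classes had the higher share: below the class median depth it was 5.20% WT and 6.22% Clec7a-/- in macrophage-like barcodes, against 4.06% and 4.43% above it. Clec7a-/- lay above WT on both sides of the median in all 5 myeloid classes. Each library was split at its own median, so that the sides were not matched for depth between libraries. In neutrophil-like barcodes the deeper Clec7a-/- side had a median of 1618 UMIs, against 2376 on the shallower WT side.

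In DC-like barcodes the nuclear-encoded level was lowest where the mitochondrial share was highest. It was 14778 WT and 16107 Clec7a-/- CPM where the share was 2.5 to 5%, 15000 and 15914 at 5 to 10%, 13986 and 14101 at 10 to 20% and 11613 and 11733 over 20%, the last from 27 and 36 barcodes. In macrophage-like barcodes it was 12808 and 13235 under 2.5%, from 16 and 30 barcodes, 17335 and 17435 at 2.5 to 5% and 17858 and 18949 at 5 to 10%, and 14605 in the 19 Clec7a-/- barcodes at 10 to 20%. Neutrophil-like barcodes had 3277 and 3090 under 2.5% and 5122 and 4416 at 2.5 to 5%. Epithelial-like barcodes kept a high level even over 20%, 34524 and 35307. Barcodes of high share in the DC-like class were also shallow, with medians of 946 and 1593.5 UMIs over 20% against 4322 and 4100 at 2.5 to 5%.

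**Figure D5:**
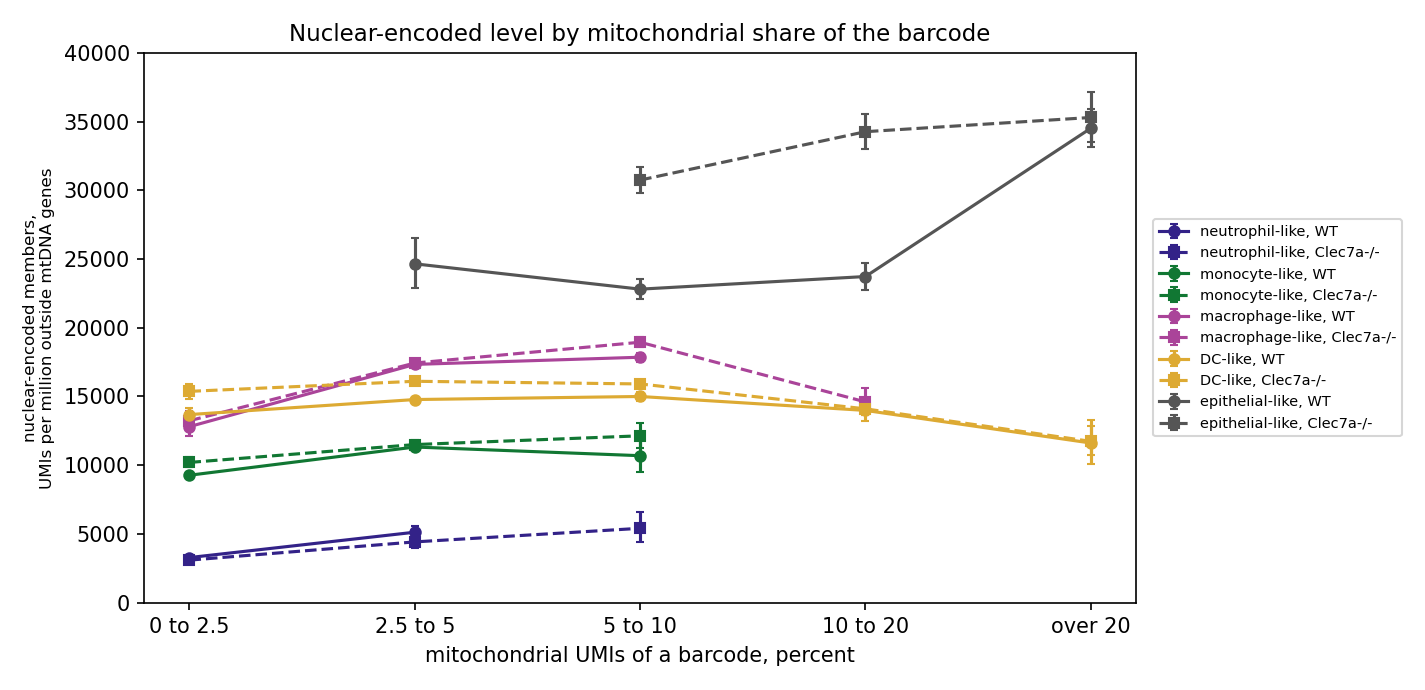
Summed nuclear-encoded level, in CPM (UMIs per 1000000 UMIs outside the mtDNA genes), of barcodes binned by their mitochondrial share, for 5 classes in WT (circles, solid) and Clec7a-/- (squares, dashed). Bars are 95% exact Poisson intervals and bins with fewer than 10 barcodes are left out; DC-like values are 14778 and 16107 at 2.5 to 5% and 11613 and 11733 over 20%.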

How the data were processed

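The authors sorted CD11b+ and CD11c+ cells, made 3′ single-cell libraries with the SeekOne MM kit (the sample description names 10x Genomics) and deposited UMI counts per gene and barcode. Per the labels, Cell Ranger 2.1.1 and mm10 were used. The deposited counts are not normalized. The study's methods kept barcodes with 200 to 4000 genes and at most 5% mitochondrial UMIs, and the latter limit was not applied here. Barcodes were scaled to 10000, log-transformed and clustered with scanpy 1.11.5 (2000 features, 20 principal components, 15 neighbors, Leiden resolution 0.8, seed 1), giving 15 clusters, named from fixed markers. UMIs were summed per class and library (numpy 2.4.6, pandas 2.3.3). Levels are CPM over UMIs outside mtDNA genes, with exact Poisson intervals. Shares carry Clopper-Pearson intervals and ratios exact conditional binomial intervals (scipy 1.17.1). Features with at least 100 UMIs over the 2 groups were compared, with a fold of 0.5 on the log2 scale between libraries and 1 between classes. The ratio step was checked on simulated counts. Named genes were the mtDNA genes, Sdh subunits, paralogs, and the 5 most extreme members per class or comparison. Members and lists were chosen with earlier results of these data known. TMM factors came from edgeR 4.0.16. Alternatives are listed in the closing section.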

Additional observations from a re-analysis of the deposited data

How the results depend on the processing

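Of 699 values recomputed under an alternative, 385 moved by less than their interval (counts by less than 1.5 times), 305 moved further and 9 summed ratios whose interval lay on one side of 0 changed sign. Of 301 summed ratios 286 kept their sign and 15 did not. Over neutrophil-like barcodes the nuclear-encoded sums of the other classes stayed above 0 in every alternative run (0.55 to 2.43), the mtDNA-encoded ones did not (-0.23 to 2.40). No paired analysis was possible because each genotype has 1 library. The removal of the epithelial-like or neutrophil-like clusters, the cluster mix of the WT library and the single neutrophil clusters, with and without barcodes over 10% mitochondrial UMIs, were chosen after seeing the data. Below, "M over N" is the macrophage-like over neutrophil-like ratio, other ratios are Clec7a-/- over WT, "sum" is the log2 ratio of summed members, and counts are nuclear-encoded members past 0.5 unless stated. The cause of each move was not tested.

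Among the 9 was the mtDNA-encoded sum in neutrophil-like barcodes, -0.086 in the cluster low in granule transcripts alone, where the nuclear-encoded sum was -0.91. In the cluster high in them the sums were 0.80 and 0.20. Without barcodes over 10% mitochondrial UMIs the mtDNA-encoded sums were 0.44 in the low and 0.68 in the high cluster. With TMM factors the mtDNA-encoded monocyte-like over neutrophil-like ratio was -0.13 in WT and -0.23 in Clec7a-/-. Up to 5% mitochondrial UMIs the mtDNA-encoded DC-like over macrophage-like ratio was -0.12 and -0.022. The other sums of the 9 were macrophage-like at up to 5% and epithelial-like at up to 10% and 5%, given below. The remaining 6 sign changes were of the nuclear-encoded sum in neutrophil-like barcodes, whose interval held 0, among them -0.0056 at up to 5% and -0.0042 at a resolution higher by 0.5. At the WT cluster mix the mtDNA-encoded sum was 0.73 in neutrophil-like and 0.23 over all barcodes, the nuclear-encoded 0.10 and 0.13. Without the epithelial-like cluster the sums over all barcodes were 0.46 for the mtDNA-encoded and 0.25 for the nuclear-encoded, and without the neutrophil-like clusters 0.34 and 0.17.

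With TMM factors the mtDNA-encoded sums were 0.17 in DC-like, 0.27 over all, 0.17 in macrophage-like, 0.081 in monocyte-like and 0.34 in neutrophil-like barcodes, the nuclear-encoded 0.085 in DC-like, 0.11 over all, 0.016 in monocyte-like and -0.20 in neutrophil-like. M over N was 0.49 in WT and 0.43 in Clec7a-/- for the mtDNA-encoded, 1.23 and 1.54 for the nuclear-encoded. Counts were 6 down and 1 up in neutrophil-like, 0 up in DC-like and monocyte-like and 3 up over all barcodes. With all UMIs as denominator the mtDNA-encoded sums were 0.19 in DC-like and 0.40 over all, the nuclear-encoded 0.24 over all, M over N 1.56 and 1.19 for the mtDNA-encoded and 2.30 in WT for the nuclear-encoded, and 0 members were up in DC-like.

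Keeping barcodes up to 10% mitochondrial UMIs left a share of 3.43% in WT and 4.26% in Clec7a-/-, mtDNA-encoded sums of 0.16 in DC-like, 0.33 over all and 0.068 in macrophage-like, and M over N of 1.66 and 1.14. Up to 5% the shares were 2.99% and 3.45%, the mtDNA-encoded sums 0.078 in DC-like, 0.21 over all, -0.022 in macrophage-like, 0.092 in monocyte-like and 0.46 in neutrophil-like, M over N 1.57 and 1.08, and the nuclear-encoded sums 0.13 in DC-like, 0.27 over all and -0.00137 in macrophage-like. Counts were 0 down over all and 1 down and 0 up in macrophage-like. Epithelial-like mtDNA-encoded sums became -0.23 and -0.16 under these limits.

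With no filter on barcodes the shares were 4.31% and 5.78%, the mtDNA-encoded sums 0.21 in DC-like, 0.45 over all, 0.27 in monocyte-like and 0.52 in neutrophil-like, the nuclear-encoded 0.13 in DC-like, 0.22 over all and 0.12 in neutrophil-like, and M over N 1.39 and 1.06 (mtDNA-encoded) and 2.24 and 2.15 (nuclear-encoded). Counts were 0 down and 5 up over all, 1 down and 0 up in macrophage-like, 0 down in monocyte-like, 0 up in DC-like and 1 up in neutrophil-like. With equal weight per barcode the shares were 4.79% and 5.92%, the mtDNA-encoded sums 0.017 in DC-like, 0.52 over all, 0.26 in macrophage-like, 0.20 in monocyte-like and 0.40 in neutrophil-like, the nuclear-encoded 0.069 in DC-like, 0.22 over all and -0.074 in neutrophil-like, and M over N 1.89 and 1.75 (mtDNA-encoded) and 2.43 in Clec7a-/- (nuclear-encoded).

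A minimum of 20 UMIs gave 2 down and 4 up in DC-like, 3 and 4 in macrophage-like, 3 and 3 in monocyte-like, 6 and 11 in neutrophil-like, and 1 member past -1 for M over N in each library. A minimum of 500 gave 0 down and 4 up over all, 0 up in macrophage-like, 0 and 0 in monocyte-like and neutrophil-like, and 37 and 29 past 1 for M over N. A pseudocount of 5 gave 0 down over all, 1 down in neutrophil-like and 0 up in DC-like. Structural subunits alone gave 5 up over all.

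With 30 principal components the mtDNA-encoded sums were 0.18 in DC-like, 0.20 in monocyte-like and 0.72 in neutrophil-like, the nuclear-encoded 0.18 in monocyte-like, and M over N 1.58 and 1.03 (mtDNA-encoded) and 2.17 and 2.19 (nuclear-encoded). A resolution higher by 0.5 gave a nuclear-encoded sum of 0.15 in monocyte-like and M over N in WT of 1.57 and 2.28. Removing the top 5% of doublet scores gave a WT share of 4.06%, mtDNA-encoded sums of 0.41 over all, 0.16 in macrophage-like and 0.60 in neutrophil-like, M over N in WT of 1.65 and 2.39, and 0 up in DC-like and 2 in monocyte-like.

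Counting error is small beside what 1 library per genotype leaves unknown: the spread between mice was not measured, and cells of 1 library are not replicates. Neutrophil-like barcodes were shallow, so that few members reached 100 UMIs there in the Clec7a-/- library.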
